A study of Homo sapiens with 12 samples.

Results

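TAp63 and deltaNp63 were compared directly in PANC-1, an established human pancreatic cancer cell line. The comparison took 4 of the 12 libraries of the series, chosen by their labels: 2 replicates of PANC-1 overexpressing TAp63 and 2 replicates of PANC-1 overexpressing deltaNp63. No mock library entered. The other libraries are PANC-1 mock and 3 matching groups of AsPC-1, another pancreatic cancer line. The labels call the replicates biological but do not say that they came from separate cultures, so p-values measure the spread between these samples. The vector, the time of harvest and whether a line was 1 clone are not given in the sources used here.

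TP63 encodes p63, a transcription factor of the p53 family. Its upstream promoter gives TAp63 proteins, which carry an amino-terminal transactivation domain, and its internal promoter gives deltaNp63 proteins, which lack that domain and have a short start of their own. Both classes share the DNA-binding domain. DeltaNp63 is known as the main form of basal and squamous epithelium, where it maintains basal keratins and adhesion genes, and TAp63 is known as the stronger activator of p53 family targets.

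The coding starts that set the classes apart are given from GENCODE v44 transcripts (hg38, plus strand of chromosome 3). Rows of the table were put in a class by the genomic start of the transcript, upstream or internal. The sequences of the constructs are not given in the sources used here. In both junction sequences the capitals mark the first bases of the first coding exon shared by both classes, which runs from 189808272 to 189808526. The first sequence has its start codon in capitals. The TAp63 form has 324 coding bases before the shared exon and the deltaNp63 form has 42.

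TAp63 coding start: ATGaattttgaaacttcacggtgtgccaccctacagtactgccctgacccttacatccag
TAp63 junction: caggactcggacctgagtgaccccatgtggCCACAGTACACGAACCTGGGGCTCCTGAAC
deltaNp63 start and junction: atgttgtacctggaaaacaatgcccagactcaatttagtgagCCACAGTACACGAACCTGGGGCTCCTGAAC

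The values were TPM, a transcript's share of the library corrected for its length, which keeps no read depth. Depth was therefore unknown and precision came from the replicates alone. In these libraries 13107 to 13161 genes reached 1 TPM. The ductal keratins KRT8 (1575 to 1762 TPM), KRT18 (1147 to 1332 TPM) and KRT19 (710 to 756 TPM) and the mesenchymal filament VIM (4291 to 4943 TPM) were abundant in every library. The other ductal and mesenchymal markers were much lower, from SOX9 (58.4 to 65.4 TPM) down to CDH1 (2.37 to 3.74 TPM) and FN1 (0.333 to 1.07 TPM). PTPRC, the pan-leukocyte marker, and the endocrine genes INS, GCG and SST were listed at 0 in all 4 libraries, and no acinar, islet or endothelial marker of the lists reached 1 TPM. Of 6 leukocyte markers 3 reached it in at least 1 library, and their list summed to between 274 and 276 TPM with TAp63 and between 271 and 290 TPM with deltaNp63, nearly all of it CD68 (269 to 288 TPM). The fibroblast list summed to between 111 and 115 TPM with TAp63 and between 86.6 and 90.4 TPM with deltaNp63. Nearly all of the fibroblast sum was COL1A1. ACTA2 was at 0.949 to 4.59 TPM, while DCN and LUM did not exceed 0.133 TPM, and no other member of that list reached 1 TPM. The part of either list in the results was not tested.

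TP63 itself was examined first, as a check of the labels. The gene (ENSG00000073282, chromosome 3, 189631389 to 189897276) was at 324 and 342 TPM in the TAp63 replicates and at 815 and 1187 TPM in the deltaNp63 replicates. Both deltaNp63 libraries were above both TAp63 libraries. The means were 333 ± 13 TPM and 1001 ± 263 TPM (SD, n = 2), a log2 difference of -1.56 (SE 0.158) on the log2(TPM + 1) scale, TAp63 minus deltaNp63. This did not pass the threshold over all genes (limma adjusted p 0.163, range over the other settings 1.44e-05 to 0.852), although it passed when genes averaging under 5 TPM were left out of the test (limma adjusted p 0.00858), and with any 1 library left out. The amount of p63 RNA was thus not matched in these libraries. TP63 overlaps ENSG00000227971 on the other strand and contains MIR944.

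The transcript rows of TP63 separated the libraries by class. Of 40282 transcript rows tested, 5 had a limma adjusted p under 0.05 (0.0124% of rows), all of them rows of TP63, and 1961 (4.87%) had an unadjusted limma p under 0.05. TP63-210, an upstream-start transcript of 14 exons, was at 108 and 120 TPM with TAp63 and listed at 0 in both deltaNp63 libraries (limma adjusted p 0.00226). TP63-204, an upstream-start transcript of 13 exons, was at 90.1 and 94.8 TPM with TAp63 and also listed at 0 with deltaNp63 (limma adjusted p 0.00226). These rows carried nearly all of the upstream-start signal, which was 61.2% and 62.8% of TP63 in the TAp63 replicates and 0.0347% and 0.0148% in the deltaNp63 replicates.

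The internal-start rows showed the reverse. TP63-212, an internal-start transcript of 12 exons, was at 308 and 365 TPM with deltaNp63 and listed at 0 with TAp63 (limma adjusted p 0.00226). TP63-205, with 10 exons, was at 170 and 263 TPM with deltaNp63 and listed at 0 with TAp63 (limma adjusted p 0.0125). TP63-213, annotated as a retained-intron transcript with no coding sequence, was at 85.9 and 129 TPM with deltaNp63 and listed at 0 with TAp63 (limma adjusted p 0.0169). No fold is given for the 5 TP63 rows that passed, since 1 group of each is listed at 0. Each of these rows passed the low-value filter through the other group alone, which fixed its direction. With any 1 library left out, 0 transcript rows passed, and the lowest adjusted p for TP63-212 was then 0.0631. The TP63-205 and TP63-213 rows also did not pass without a low-value filter (limma adjusted p 0.567 and 0.618) or without a trend in the limma fit (0.0925 and 0.104).

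**Figure D1:**
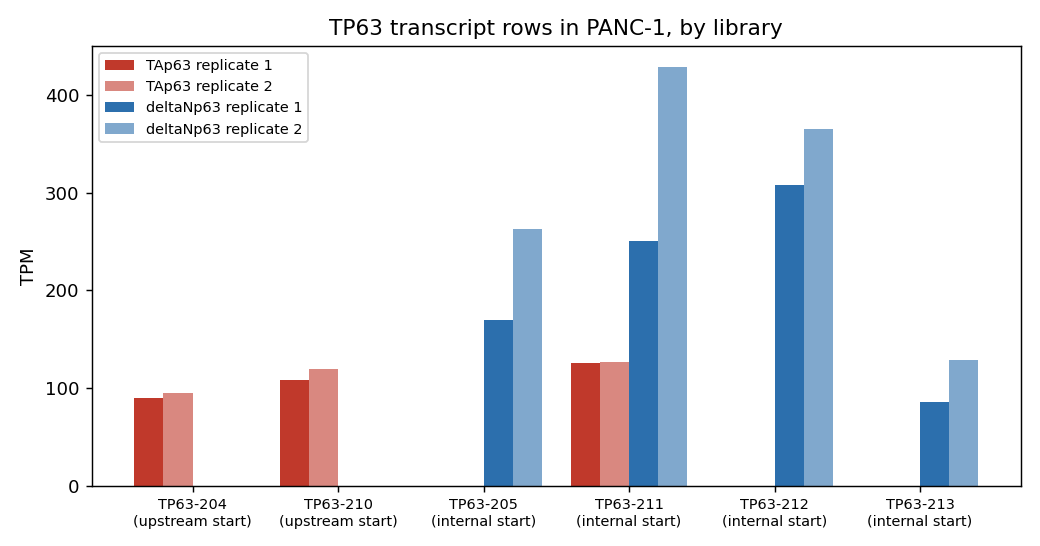
TPM of each TP63 transcript row that reached 1 TPM in any library, with 1 bar per library (red TAp63, blue deltaNp63). TP63-204 and TP63-210 have bars in the TAp63 libraries alone, TP63-205, TP63-212 and TP63-213 in the deltaNp63 libraries alone, and TP63-211 in all 4.

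The row TP63-211 did not follow the class of the construct. It is annotated with the internal start, yet it was at 126 and 127 TPM in the TAp63 replicates and at 251 and 429 TPM in the deltaNp63 replicates, a log2 difference of -1.37 (SE 0.262, limma adjusted p 0.82). It held 38.8% and 37.2% of TP63 with TAp63, and 30.8% and 36.1% with deltaNp63. Of its 1506 bases, 97.2% lie in exons that upstream-start transcripts also have. How the authors' program divided reads from shared exons between rows is not given in the sources used here, so the split between rows, within and between the start classes, is uncertain, and with it the upstream shares of 61.2% and 62.8%.

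The rows with signal also differ at the coding end, shown because it sets TP63-204 and TP63-205 apart. In TP63-204 and TP63-205 the capitals mark the last coding exon, and the lower-case bases end the exon before it. All bases shown for TP63-210 lie in its last coding exon, which begins after coding base 1734. The change of case in that sequence marks no exon boundary. TP63-210, TP63-211 and TP63-212 have an identical coding end, and TP63-204 and TP63-205 each have another.

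TP63-210 coding end: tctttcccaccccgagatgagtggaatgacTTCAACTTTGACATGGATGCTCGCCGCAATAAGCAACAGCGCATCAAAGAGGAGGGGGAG
TP63-204 coding end: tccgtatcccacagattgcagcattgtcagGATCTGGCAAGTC
TP63-205 coding end: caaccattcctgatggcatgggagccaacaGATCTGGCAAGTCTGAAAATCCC

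TP63-210 and TP63-212 also share the short form of the exon that starts at 189868580. The other coding rows that span it have 12 more bases there, among them TP63-204, TP63-205 and TP63-211.

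The rest of the transcriptome was then compared. Of 13256 genes at 1 TPM or more in at least 2 of the 4 libraries, 0 passed the test between TAp63 and deltaNp63 (0% called, limma adjusted p under 0.05), and the lowest adjusted p was 0.12. With 1 library left out the count rose to 45 without TAp63 replicate 1, 20 without TAp63 replicate 2, 3 without deltaNp63 replicate 1 and 2 without deltaNp63 replicate 2. An unadjusted limma p under 0.05 was found for 716 genes, or 5.4%, with 415 higher and 301 lower with TAp63. The groups did not overlap for 4572 genes, or 34.5%. The central 90% of log2 differences lay between -0.24 and 0.27, with a median of 0.0188, and 43 genes differed by at least 1 on the log2 scale. Of these 43 genes, 31 had a mean under 5 TPM. When the spread was taken from all 12 libraries in 6 groups, 4 genes passed (0.0271% of 14767), none of them among the 20 protein-coding genes described below. They were the pseudogene MT1P1 and 3 loci without a symbol, ENSG00000215861, ENSG00000226767 and ENSG00000269836. ENSG00000215861 was at 3.72 and 5.14 TPM with TAp63 and at 0.685 and 0.977 TPM with deltaNp63, and the others were listed at 0 in both libraries of 1 group. Among the 4 libraries compared, each of these genes reached 1 TPM in the libraries of 1 group alone. They passed the filter on those libraries through that group, which fixed their direction.

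Libraries of different groups were about as alike as libraries of the same group. The median absolute log2 difference between the deltaNp63 replicates was 0.141, and between the TAp63 replicates it was 0.0896. The 4 pairs made of 1 TAp63 and 1 deltaNp63 library gave 0.109 to 0.126, inside that range. Pearson's r across genes was 0.993 and 0.990 within the groups and 0.991 to 0.993 between them.

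**Figure D2:**
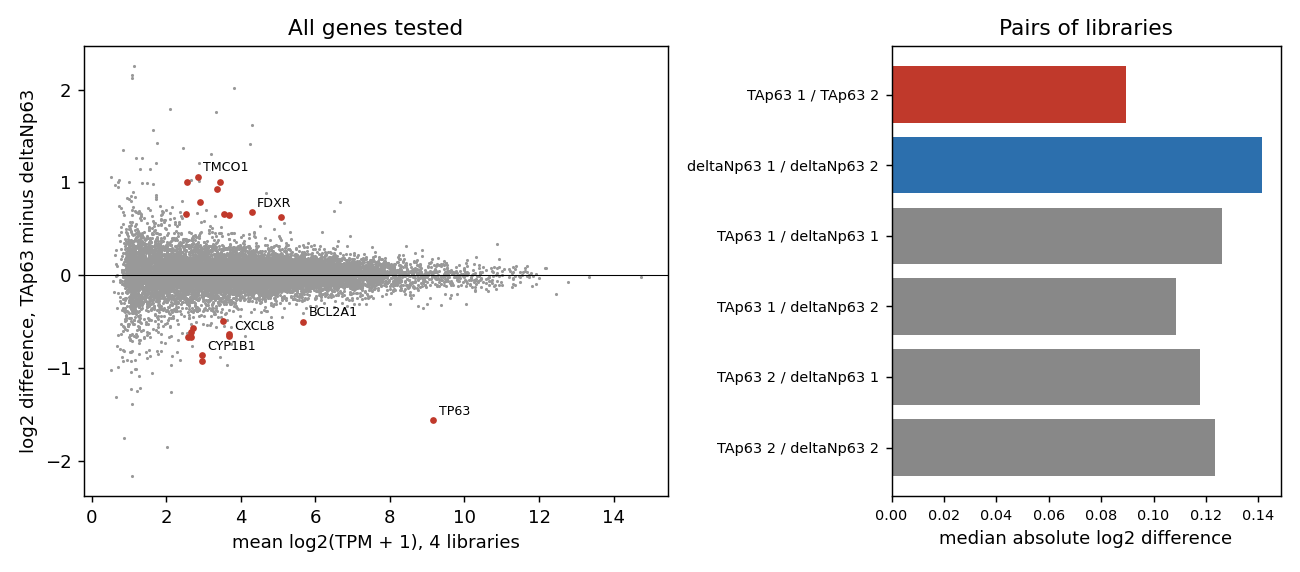
Left, the log2 difference (TAp63 minus deltaNp63) against the mean log2(TPM + 1) for the 13256 genes tested, with TP63 and the 20 protein-coding genes described in the text in red. Right, the median absolute log2 difference for each pair of libraries; the 4 pairs between groups (grey) fall between the TAp63 pair (red, 0.0896) and the deltaNp63 pair (blue, 0.141).

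Since 0 genes passed, the protein-coding genes with the largest differences are given as values. They had a mean of at least 5 TPM, an unadjusted p under 0.05 and no overlap between the groups, which 487 genes besides TP63 met. The 10 with the largest log2 difference each way are described. Their limma adjusted p ranged from 0.28 to 0.905.

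Among genes with higher values under TAp63, FDXR is a known p53 family target. It encodes ferredoxin reductase, which passes electrons to mitochondrial cytochrome P450 enzymes. FDXR (ENSG00000161513, chromosome 17, 74862497 to 74873031) was at 23.2 and 24.3 TPM with TAp63 and at 15.1 and 13.9 TPM with deltaNp63. The difference of 0.68 (SE 0.0957, limma unadjusted p 0.000212, adjusted p 0.313) stayed between 0.62 and 0.73 when each library was left out. The replicates of either group lay close together, and the rule of choice required the groups to be apart. ARHGAP33 was at 13.6 TPM in both TAp63 replicates and at 7.87 and 8.61 TPM with deltaNp63 (0.66, limma adjusted p 0.446). APOC1, an apolipoprotein, was at 8.13 and 9.48 TPM with TAp63 and at 5.02 and 4.34 TPM with deltaNp63 (0.79, limma adjusted p 0.577). APOC1 overlaps ENSG00000280087 on the same strand. FANK1 was at 15 and 15.4 TPM with TAp63 and at 7.92 and 10.9 TPM with deltaNp63 (0.65, limma adjusted p 0.833).

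Other genes of this set varied more between replicates. TMCO1, an endoplasmic reticulum calcium channel, had the largest difference, 1.06 (SE 0.27, limma adjusted p 0.905), with 7.13 and 12.1 TPM against 5.05 and 3.05 TPM. URI1, a prefoldin-like chaperone subunit, was at 16.5 and 10.3 TPM against 7.21 and 5.64 TPM (0.93, limma adjusted p 0.853). FAAP100, of the Fanconi anaemia core complex, was at 36.3 and 46 TPM against 19.4 and 34.9 TPM (0.63, limma adjusted p 0.905). The FAAP100 difference was 0.22 without deltaNp63 replicate 1 and 1.04 without deltaNp63 replicate 2. GALK1, galactokinase, was at 7.83 and 5.07 TPM against 3.73 and 3.56 TPM (0.66, limma adjusted p 0.905), and it overlaps ITGB4 on the other strand, so reads of the pair cannot be told apart unless strand was used. The GALK1 difference ranged from 0.39 to 0.93 with each library left out. ARPC4-TTLL3 and ENSG00000288258 are readthrough genes that overlap ARPC4 and TTLL3, or CMC4 and MTCP1. Their differences of 1.00 and 1.01 (limma adjusted p 0.621 and 0.28) could belong to those neighbours. With 1 TAp63 library left out, TMCO1 (1.41, limma adjusted p 0.00479) and ARPC4-TTLL3 (1.23, 0.01) passed without replicate 1, and URI1 (1.25, 0.00403) and ENSG00000288258 (1.18, 0.00403) passed without replicate 2. Without the other TAp63 replicate their differences were 0.71, 0.76, 0.62 and 0.85, and none of the 4 passed.

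Among genes with lower values under TAp63, BCL2A1, an anti-apoptotic BCL2 relative and known NF-kB target, was at 44 and 40.2 TPM with TAp63 and at 59.1 and 60.7 TPM with deltaNp63. The difference of -0.50 (SE 0.0816, limma unadjusted p 0.000504, adjusted p 0.446) ranged from -0.56 to -0.44 with each library left out. CXCL8, the neutrophil chemoattractant interleukin-8, was at 10.3 and 8.3 TPM with TAp63 and at 13.6 and 16.7 TPM with deltaNp63 (-0.65, SE 0.145, limma adjusted p 0.799). IFNB1, interferon beta, was at 10.9 and 7.81 TPM with TAp63 and at 14.6 and 15.1 TPM with deltaNp63 (-0.63, SE 0.154, limma adjusted p 0.905). Its difference was -0.41 without TAp63 replicate 2 and -0.85 without TAp63 replicate 1, where it passed (limma adjusted p 0.0431). KRT15, a basal keratin, was at 8 and 9.24 TPM with TAp63 and at 12.9 and 12.1 TPM with deltaNp63 (-0.49, SE 0.117, limma adjusted p 0.882).

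The remaining genes on this side were less even. CYP1B1, a cytochrome P450 of the aryl hydrocarbon response, was at 4.52 and 4.94 TPM with TAp63 and at 5.93 and 14.6 TPM with deltaNp63. Its difference of -0.86 (limma adjusted p 0.905) rested on deltaNp63 replicate 2 and was -0.27 without it. LZTR1 was at 2.49 and 5.4 TPM against 6.79 and 6.24 TPM (-0.67, limma adjusted p 0.905), and RAB3IP at 5.56 and 2.92 TPM against 6.5 and 7.53 TPM (-0.66, limma adjusted p 0.905). The first rested on TAp63 replicate 1 and the second on TAp63 replicate 2, without which the differences were -0.23 and -0.29. Without the other TAp63 library each of them passed (limma adjusted p 0.0382 for LZTR1 and 0.0404 for RAB3IP). SHLD3, a subunit of the shieldin complex of DNA break repair, was at 4.63 and 3.68 TPM against 6.62 and 7 TPM (-0.61, limma adjusted p 0.882). It overlaps TRAPPC13 on the same strand and TRIM23 on the other, so its reads may not be told apart from theirs. CYP1B1, LZTR1 and RAB3IP also overlap genes on the same strand. ENSG00000250264 and ENSG00000255663 are readthrough genes over HLA-DOB and TAP2, or RBM7 and REXO2, with differences of -0.92 and -0.57 (limma adjusted p 0.724 and 0.905). ENSG00000250264 passed without TAp63 replicate 1 (-1.13, limma adjusted p 0.0128) and was at -0.71 without TAp63 replicate 2, and ENSG00000255663 ranged from -0.84 to -0.31 with each library left out.

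**Figure D3:**
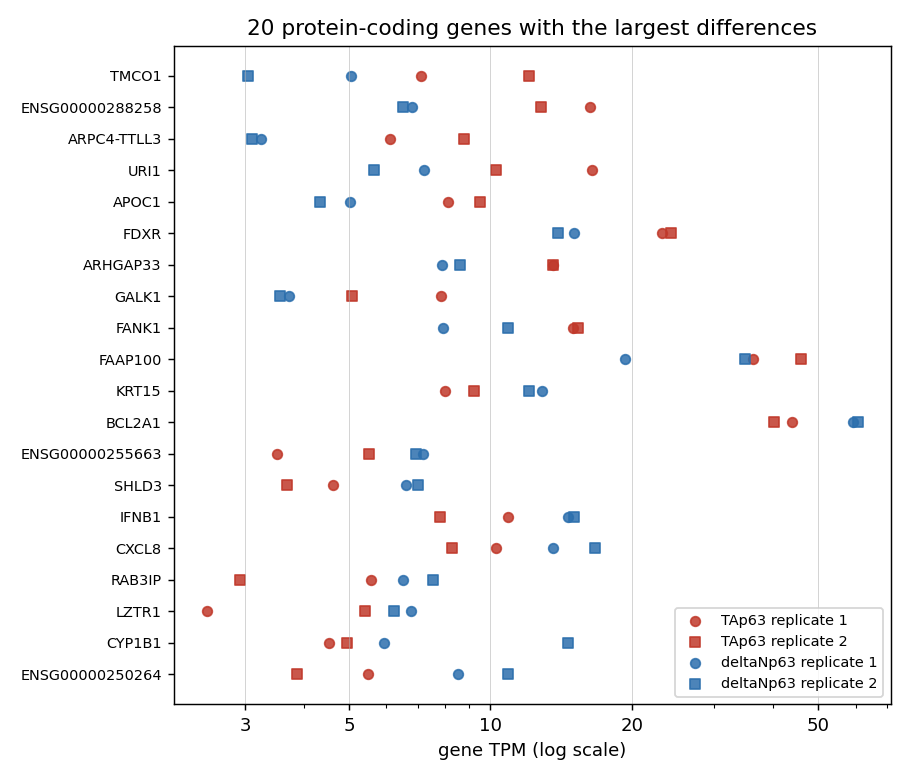
Gene TPM on a log axis in each of the 4 libraries (red TAp63, blue deltaNp63; circle replicate 1, square replicate 2) for the 20 protein-coding genes, ordered by log2 difference. The groups do not overlap in any row, by the rule of choice, and in FAAP100 the values 36.3 and 34.9 TPM nearly meet.

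Gene lists of known p63 biology were then read for counts and medians, set against all genes tested, of which 3.13% had an unadjusted limma p under 0.05 with higher values under TAp63 and 2.27% with lower values. In every list 0 members passed over all genes. With 1 library left out, the median kept its sign in the cell cycle, epithelial-mesenchymal, cytokine and interferon lists and changed sign in the other lists at least once. The medians of the basal, TAp63 target, classical marker and p63 regulator lists also changed sign under at least 1 other setting. Members named are those with the lowest unadjusted p of a list, unless said otherwise.

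Of 40 p53 family targets 39 were tested, with 2 at an unadjusted p under 0.05 higher with TAp63 and 3 lower, and a median log2 difference of -0.00476. After FDXR the lowest p belonged to PMAIP1, which encodes the pro-apoptotic protein NOXA. It was at 45.8 and 40.5 TPM with TAp63 and at 55.9 and 58.9 TPM with deltaNp63 (-0.41, limma adjusted p 0.799). PLK2, a stress-induced kinase, was at 82.4 and 75.5 TPM against 89.3 and 111 TPM (-0.34, limma adjusted p 0.905). The best known members, named after their values were seen, overlapped between the groups in their gene sums. CDKN1A, the cell cycle inhibitor p21, was at 105 and 95.5 TPM against 90.3 and 112 TPM. MDM2, the p53 ubiquitin ligase, was at 18.1 and 20.4 TPM against 17.5 and 21 TPM. A CDKN1A transcript row was higher with TAp63 with the spread of all 12 libraries (2.02, limma adjusted p 0.0491). That row did not pass in the main fit.

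Of 17 reported TAp63 targets 14 were tested, with 3 higher and 2 lower at an unadjusted p under 0.05 and a median of 0.000371. They included PMAIP1 again, on the lower side. IKBKB, a kinase that activates NF-kB, was at 11 and 10.3 TPM with TAp63 and at 7.39 and 8.04 TPM with deltaNp63 (0.42, limma adjusted p 0.905). CDKN1C, the cell cycle inhibitor p57, was at 2.96 and 2.75 TPM against 1.88 and 1.78 TPM (0.45, limma adjusted p 0.905).

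Of 50 genes of the basal programme linked to deltaNp63, 30 reached the filter and were tested, with 1 higher and 2 lower at an unadjusted p under 0.05 and a median of 0.0459. CD44, an adhesion receptor, was at 1190 and 1179 TPM with TAp63 and at 1237 and 1250 TPM with deltaNp63, and ITGB1, an integrin subunit, at 770 and 731 TPM against 734 and 726 TPM. KRT5 and KRT14, the keratins of basal keratinocytes, were below the filter, KRT5 at 0.145, 0.0202, 0.103 and 0 TPM and KRT14 at 0.482, 0.0254, 0.114 and 0.356 TPM in TAp63 replicates 1 and 2 and deltaNp63 replicates 1 and 2 (these 4 genes were named after their values were seen). Besides KRT15, the members with the lowest p were TXN and ITGB4. TXN, the antioxidant thioredoxin, was at 314 and 308 TPM with TAp63 and at 356 and 347 TPM with deltaNp63 (-0.17, limma adjusted p 0.905). ITGB4, the hemidesmosome integrin, was at 9.24 and 9.82 TPM against 8.11 and 6.78 TPM (0.32, limma adjusted p 0.905), and it overlaps GALK1.

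Of 25 genes of desmosomes and the cornified envelope 7 were tested and 6 were listed at 0 in all 4 libraries. Their median was 0.0261, with 2 higher and 0 lower at an unadjusted p under 0.05. JUP, plakoglobin, was at 94.8 and 95.8 TPM with TAp63 and at 80.6 and 83.7 TPM with deltaNp63 (0.21, limma adjusted p 0.905). PKP3, plakophilin 3, was at 41.3 and 38 TPM against 34.2 and 31.8 TPM (0.26, limma adjusted p 0.905). PERP, a desmosome gene and p63 target, overlapped at 547 and 522 TPM against 528 and 474 TPM (0.09, limma adjusted p 0.941).

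Of 36 classical pancreatic markers 15 were tested, with 2 higher and 0 lower at an unadjusted p under 0.05 and a median of 0.0911, which was -0.108 among members with a mean of at least 5 TPM. TFF3, a secreted trefoil peptide, was at 1.37 and 1.26 TPM with TAp63 and at 0.318 and 0 TPM with deltaNp63 (1.01, limma adjusted p 0.799). Near the floor this value is set by the added pseudocount, and it was 2.79 (limma adjusted p 0.919) with a pseudocount of 0.1. TFF3 passed the low-value filter through the TAp63 libraries alone, which fixed its direction. CDH1, E-cadherin, was at 3.74 and 3.69 TPM against 2.37 and 2.61 TPM (0.43, limma adjusted p 0.905). FOXA2, an endodermal transcription factor, overlapped at 10.1 and 8.72 TPM against 9.86 and 18.4 TPM (-0.48, limma adjusted p 0.927).

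Of 35 epithelial-mesenchymal genes 26 were tested, with 5 higher and 0 lower at an unadjusted p under 0.05 and a median of 0.0667. COL1A1, the alpha-1 chain of type I collagen, was at 108 and 111 TPM with TAp63 and at 88.6 and 80.8 TPM with deltaNp63 (0.37, limma adjusted p 0.746). MMP2, a gelatinase, was at 60.8 and 58.3 TPM against 47.1 and 49.3 TPM (0.30, limma adjusted p 0.905). The list thus held higher values under TAp63 for CDH1, on the epithelial side, as well as for COL1A1 and MMP2, on the mesenchymal side.

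All 41 cell cycle and replication genes were tested, with 4 higher and 1 lower at an unadjusted p under 0.05 and a median of 0.0942. The groups did not overlap for 21 members with higher values under TAp63, against 20.6% of all genes, and for 2 with lower values, against 13.9%. CENPF, a kinetochore protein, was at 37.7 and 43.8 TPM with TAp63 and at 29.5 and 34 TPM with deltaNp63 (0.35, limma adjusted p 0.905). PLK1, a mitotic kinase, was at 99.9 and 102 TPM against 84.4 and 90.6 TPM (0.21, limma adjusted p 0.905). CCNE2, a cyclin of S-phase entry, lay on the other side at 16.9 and 17 TPM against 23 and 21 TPM (-0.36, limma adjusted p 0.905). The mean log2(TPM + 1) of the list was 6.24 in both TAp63 libraries and 6.15 and 6.17 in the deltaNp63 libraries, while that of all genes was 4.27 and 4.25 against 4.22 and 4.26.

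Of 34 regulators and partners of p63 protein 33 were tested, with 2 higher and 1 lower at an unadjusted p under 0.05 and a median of 0.00449. USP28, a deubiquitinase that stabilises p63, was at 7.67 and 7.1 TPM with TAp63 and at 11.3 and 8.73 TPM with deltaNp63 (-0.39, limma adjusted p 0.905). STUB1, a ubiquitin ligase, was at 153 and 167 TPM against 143 and 139 TPM (0.18, limma adjusted p 0.905).

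Of 15 metallothionein genes, metal-binding proteins and their regulators, 9 were tested, with 0 higher and 1 lower at an unadjusted p under 0.05 and a median of 0.0671. That gene, the pseudogene MT1P1, was listed at 0 in both TAp63 libraries and at 1.02 and 1.03 TPM in the deltaNp63 libraries (limma adjusted p 0.746, or 0.0466 with the spread of all 12 libraries). MT1P1 passed the low-value filter through the deltaNp63 libraries alone, which fixed its direction. MT1E was at 202 and 188 TPM with TAp63 and at 175 TPM in both deltaNp63 libraries (0.15, limma adjusted p 0.918), and MT1X at 65.7 and 69.8 TPM against 70.5 and 81.4 TPM (-0.16, limma adjusted p 0.927). Metallothioneins have near-identical copies, so the division of reads among them is uncertain.

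**Figure D4:**
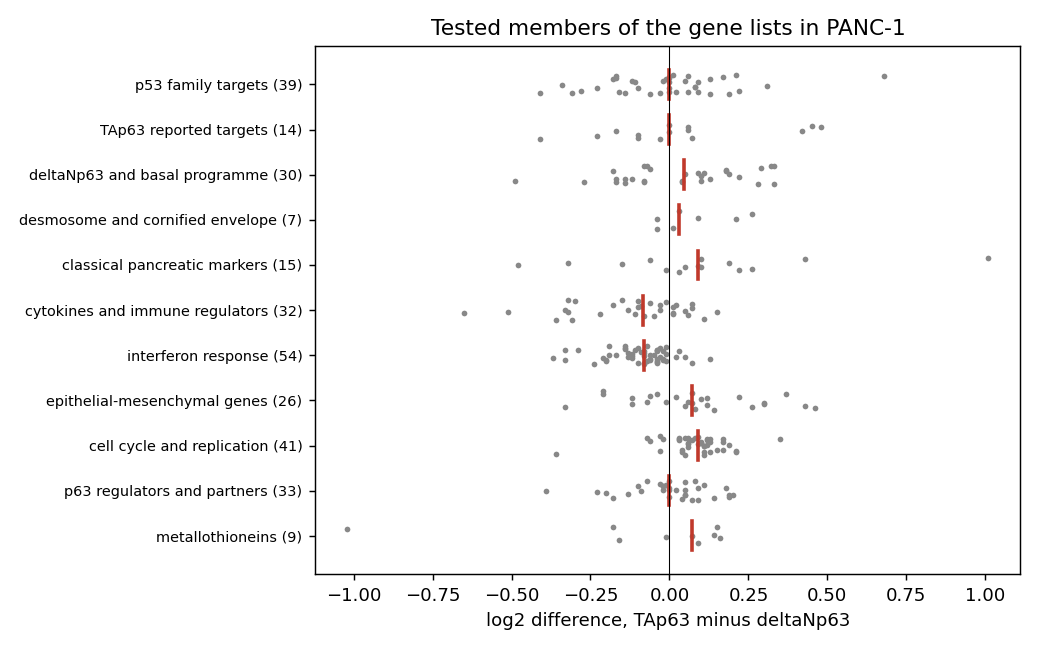
Log2 difference, TAp63 minus deltaNp63, of each tested member of the 11 gene lists (points; number tested in brackets), with the list's median as a red line. The medians lie between -0.0809 (cytokines and immune regulators) and 0.0942 (cell cycle and replication).

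Of 50 cytokines and immune regulators 32 were tested, with 0 higher and 5 lower at an unadjusted p under 0.05 and a median of -0.0809. Besides CXCL8, CCL2, a monocyte chemoattractant, was at 110 and 95.9 TPM with TAp63 and at 118 and 143 TPM with deltaNp63 (-0.33, limma adjusted p 0.905). CXCL11, an interferon-induced T-cell chemoattractant, was at 2.84 and 2.04 TPM against 4.11 and 3.63 TPM (-0.51, limma adjusted p 0.905). The groups did not overlap for 12 members with lower values under TAp63, against 13.9% of all genes, and for 2 with higher values, against 20.6%. TGFB1, the transforming growth factor ligand named here after its values were seen, was at 42.6 and 41.5 TPM against 40 and 41.3 TPM.

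The interferon response genes, which are induced downstream of interferon receptors, had mostly small negative differences. Of 55 listed genes 54 were tested, with 0 higher and 7 lower at an unadjusted p under 0.05 and a median of -0.0757. That median was -0.0274 without TAp63 replicate 2, -0.0225 without deltaNp63 replicate 2, -0.125 without TAp63 replicate 1 and -0.151 without deltaNp63 replicate 1. A difference below 0 was found in 49 of the 54, against 5787 of 13256 genes in all. IFIT1, which binds viral RNA, was at 857 and 807 TPM with TAp63 and at 956 and 955 TPM with deltaNp63 (-0.20, SE 0.0621, limma adjusted p 0.905). OASL, of the oligoadenylate synthetase family, was at 352 and 334 TPM against 390 and 406 TPM (-0.21, limma adjusted p 0.905). IFIT1 and RSAD2 overlap LIPA and CMPK2 on the other strand. RSAD2, the antiviral protein viperin, was at 55 and 46.4 TPM against 59.9 and 67.5 TPM (-0.33, limma adjusted p 0.905). The groups did not overlap for 17 members with lower values under TAp63, against 13.9% of all genes, and for 2 with higher values, against 20.6%. IFIT1, OASL and RSAD2, picked by lowest p, were among the 17. The mean log2(TPM + 1) of the list overlapped between groups, at 6.70 and 6.60 with TAp63 and 6.68 and 6.80 with deltaNp63.

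The same contrast was available in AsPC-1, from 4 libraries that share none with PANC-1. TP63 there was at 102 and 170 TPM with TAp63 and at 245 and 350 TPM with deltaNp63, and its difference was -1.15 (limma adjusted p 0.776). An interaction term over 14467 genes tested whether the contrast differed by line. It gave 0 genes at a limma adjusted p under 0.05 (0% called), with a lowest adjusted p of 0.0758 and 402 genes at an unadjusted p under 0.05, or 2.78%. Across 13256 genes the log2 differences of the cell lines had a Pearson's r of 0.16. For TP63 the interaction was -0.41 (SE 0.39, limma adjusted p 1).

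The interferon list differed most in its median between the lines among the 11 lists. Its median was -0.0757 in PANC-1 and 0.37 in AsPC-1, where 49 of 54 members were above 0, against medians of all genes of 0.0188 and 0.0418. For IFIT1 the AsPC-1 values were 73.6 and 82.9 TPM with TAp63 and 55.3 and 63.1 TPM with deltaNp63, and the interaction was -0.60 (SE 0.137, limma unadjusted p 0.0028, adjusted p 1). An unadjusted p under 0.05 with PANC-1 lower was found for 25 of the 54, against 1.62% of all genes, and 0 members passed the adjusted threshold. The cell cycle list had a median of 0.243 in AsPC-1, beside 0.0942 in PANC-1, but its AsPC-1 means of log2(TPM + 1) overlapped between groups, at 4.69 and 4.74 with TAp63 and 4.26 and 4.73 with deltaNp63, where replicate 1 stood low. The p53 family targets had 0.128 in AsPC-1 beside -0.00476 in PANC-1.

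**Figure D5:**
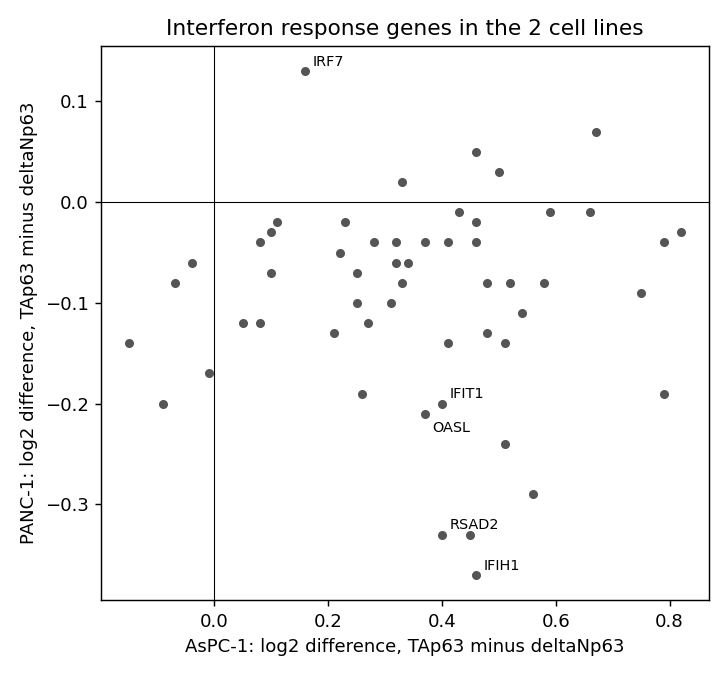
Each point is 1 of the 54 tested interferon response genes, with its log2 difference (TAp63 minus deltaNp63) in AsPC-1 on the horizontal axis and in PANC-1 on the vertical axis. Most points lie right of 0 and below 0: 49 members are above 0 in AsPC-1 and 49 are below 0 in PANC-1.

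An exact permutation test of 2 libraries against 2 cannot give a two-sided p below 0.333, so calls rest on the spread that limma shares between genes. A p above the threshold does not show that the constructs act alike.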

How the data were processed

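Total RNA was made into libraries with a stranded mRNA kit, per the labels' protocols. The authors deposited TPM values for 153329 Ensembl transcripts, in which every library sums to 1000000. The quantifier, build and annotation are not given in the sources used here. GENCODE v44 (hg38) paired 139819 rows (91.2%) with genes, which held between 90.2% and 90.5% of the TPM of the 4 libraries. The 13510 unpaired rows entered the transcript test but no gene sum. TPM was summed to 39099 genes and analysed as log2(TPM + 1), a scale that understates the change of low genes.

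Genes and transcript rows that reached 1 TPM in 2 or more of the 4 libraries were fitted with limma 3.58.1 in R 4.3.3 (lmFit on group means, eBayes with trend, two-sided, 2 residual degrees of freedom). P-values were adjusted over all features tested by the Benjamini-Hochberg method, with a threshold of 0.05. The cell-line interaction used the 8 TAp63 and deltaNp63 libraries. Named genes were TP63, then genes past the threshold with a mean of at least 1 TPM and no overlap. As 0 genes qualified, the 10 protein-coding genes with the largest difference each way (mean of at least 5 TPM, unadjusted p under 0.05, no overlap) were named, with 3 members of each of the 11 lists by lowest p, of which 1 is not reported here. The fit was tested on simulated data. Genes overlapping or closely copying others are uncertain. The members, lists and tests were chosen with earlier results of these data known.

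Other settings tried were the spread from all 12 or the 6 PANC-1 libraries, limma without trend, quantile normalization, median centring, a pseudocount of 0.1, no filter on low values, only features averaging 5 TPM or more, an absolute log2 difference of at least 1, a replicate block, and leaving out each library.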

Additional observations from a re-analysis of the deposited data

How the results depend on the processing

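Between TAp63 and deltaNp63 in PANC-1 the count of 0 genes became 4 with the spread from all 12 libraries, 1 (LINC00869) with that from the 6 PANC-1 libraries, and 1 (TP63) among genes averaging 5 TPM or more. It ranged from 2 to 45 with each library left out; the highest count came without TAp63 replicate 1 and the count without TAp63 replicate 2 was 20. A lone sample is then assumed to vary like the other group, with 1 group of 2 setting the spread. The count stayed at 0 without trend, under quantile normalization, median centring, a pseudocount of 0.1 or no low-value filter. Asking also for a log2 difference of at least 1 could only leave the count at 0. The 5 transcript rows became 11 with all 12 libraries, all 5 TP63 rows among them, 3 without trend, 3 without a low-value filter, and 0 to 0 with each library left out. The TP63 difference of -1.56 passed among genes averaging 5 TPM or more (limma adjusted p 0.00858) and ranged from -1.83 to -1.29 with each library left out, where it passed each time. The cell-line difference of 0 genes became 3 without trend, 5 under quantile normalization, and 0 to 3 with each library left out. The cause of these changes was not tested. No setting turned the direction of a gene or transcript row chosen by the naming rule. The direction of the 5 TP63 rows, each listed at 0 in 1 group, was fixed by the filter in the main fit. The gene sums of CDKN1A, MDM2 and the other genes named after their values were seen were not followed across settings.

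The replicate numbers are labels on 2 pairs, and same-numbered deviations from the group means correlated at -0.0387 across genes. A single value over all genes cannot decide whether the numbers pair the samples, since a shared effect may lie in few genes. With the replicate block 8 genes passed, 4 each way, with TP63 at -1.56 (limma adjusted p 0.00664). The block kept 5 transcript rows and 0 genes in the cell-line difference.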
